A study of Homo sapiens with 16 samples.

Results

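The 53 genes described here encode the RNA-binding proteins and core particles of the pre-mRNA splicing machinery. They were chosen by their names from 19974 protein-coding genes of the RefSeq annotation of GRCh38.p14 on chromosomes 1 to 22 and X. They comprise 20 HNRNP genes, 12 SRSF genes, 9 genes for subunits of SF3A and SF3B, 11 SNRP genes and RBM15. Peaks of 3 histone marks within 2 kb of either end of each gene were read from 12 deposited peak lists.

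Introns are removed by the spliceosome, whose building blocks are small nuclear ribonucleoproteins (snRNPs): short RNAs carried by a ring of Sm proteins together with particle-specific proteins. SF3A and SF3B are parts of the U2 snRNP, which binds the branch point of the intron. SR proteins (the SRSF genes) mostly promote the use of the exons they bind, and hnRNP proteins coat nascent transcripts and often repress splice sites. CARM1 is an arginine methyltransferase that modifies histone H3, the acetyltransferases CREBBP and EP300, and several splicing proteins, SNRPB, SNRPC and SF3B4 among them. CREBBP and EP300 write H3K27ac, a mark of active promoters and enhancers, H3K4me3 marks the promoters of active genes, and H3K4me1 marks enhancers and the flanks of promoters.

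The cells were Toledo, an established human diffuse large B-cell lymphoma line, grown in suspension for 6 days with the CARM1 inhibitor TP-064 at 5 uM or with its solvent DMSO. Chromatin immunoprecipitation followed by sequencing gave 2 libraries for each mark and treatment, all from the same line, and no label says that the 2 came from separate cultures. Per the labels, every DMSO library was sequenced on lane 3 and every inhibitor library on lane 4, and the effect of the lane cannot be told apart from that of the drug. The 4 input libraries were not analysed here.

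Each list gave the start and end of its peaks and no height, so the values below are presence and width in bp. The number of reads behind the lists is unknown, and a missing peak means only that none was listed. For H3K27ac the DMSO lists had 7885 and 4016 entries, against 4771 and 4595 in inhibitor-treated cells. The H3K4me1 lists went from 25058 and 9673 to 4094 and 4242, and the H3K4me3 lists went from 12476 and 11481 to 10317 and 10048. Of 8 B-cell marker genes, 8 had an H3K4me3 peak in both DMSO libraries and 6 in both inhibitor libraries, against 0 of 6 T and NK cell markers and 0 of 6 myeloid markers in any library. Among 6 epithelial and stromal markers, 2 had H3K4me3 with DMSO and 1 with the inhibitor. H3K27ac lay at 8 and 6 B-cell markers with DMSO and at 5 in each inhibitor library. It lay at 0 of the 6 myeloid markers, at 1 of the 6 T and NK cell markers in the first DMSO and both inhibitor libraries, and at 2 and 1 of the epithelial and stromal markers in the DMSO libraries only.

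RefSeq promoter entries matched 49 of the 53 genes, and none was matched for HNRNPA1, SRSF2, SF3B3 and SNRPD1. The 250 bases upstream of the 5′ end are printed for 6 of them, chosen to cover different H3K27ac states and because the letters found in them differ by role. Capitals mark matches, on either strand, of the CCAAT box, the GC box GGGCGG, the ETS-type core CCGGAAG and the E-box CACGTG. The TATA-type motif TATAAA and the palindromes known as the NRF1 motif and the CGCG element were searched as well and had no match in these 6, and none of the 7 motifs contains another. A match is a run of letters and not a shown binding site. SNRPB lies on the minus strand (chr20:2470790-2471039), SF3A2 on the plus strand (chr19:2236574-2236823), SNRPA1 on the minus strand (chr15:101295249-101295498) and RBM15 on the plus strand (chr1:110339127-110339376). HNRNPDL lies on the minus strand (chr4:82430463-82430712) and HNRNPM on the plus strand (chr19:8444725-8444974), all in GRCh38.p14. SNRPB, SF3A2 and RBM15 had H3K27ac in DMSO cells and none after inhibition, SNRPA1 had it in a single DMSO library, and HNRNPDL and HNRNPM had it in all 4 libraries.
SNRPB: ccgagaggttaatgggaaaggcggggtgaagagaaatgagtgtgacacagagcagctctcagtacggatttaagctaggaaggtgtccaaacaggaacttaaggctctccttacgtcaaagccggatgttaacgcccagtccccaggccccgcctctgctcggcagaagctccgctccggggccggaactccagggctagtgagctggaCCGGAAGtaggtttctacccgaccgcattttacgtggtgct
SF3A2: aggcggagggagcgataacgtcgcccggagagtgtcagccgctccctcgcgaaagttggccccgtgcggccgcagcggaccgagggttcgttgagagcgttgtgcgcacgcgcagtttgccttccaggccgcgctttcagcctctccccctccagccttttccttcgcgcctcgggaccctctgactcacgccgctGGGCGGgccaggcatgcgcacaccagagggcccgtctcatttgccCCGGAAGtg
SNRPA1: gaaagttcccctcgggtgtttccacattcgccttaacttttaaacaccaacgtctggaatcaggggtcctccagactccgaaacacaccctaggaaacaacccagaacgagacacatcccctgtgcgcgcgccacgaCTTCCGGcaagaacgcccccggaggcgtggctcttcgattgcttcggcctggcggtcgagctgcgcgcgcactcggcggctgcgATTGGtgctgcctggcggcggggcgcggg
RBM15: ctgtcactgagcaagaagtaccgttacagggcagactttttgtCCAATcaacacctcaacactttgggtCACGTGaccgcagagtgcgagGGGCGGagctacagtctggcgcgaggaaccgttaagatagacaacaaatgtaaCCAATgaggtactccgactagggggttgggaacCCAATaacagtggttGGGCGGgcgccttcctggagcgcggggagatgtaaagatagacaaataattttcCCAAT
HNRNPDL: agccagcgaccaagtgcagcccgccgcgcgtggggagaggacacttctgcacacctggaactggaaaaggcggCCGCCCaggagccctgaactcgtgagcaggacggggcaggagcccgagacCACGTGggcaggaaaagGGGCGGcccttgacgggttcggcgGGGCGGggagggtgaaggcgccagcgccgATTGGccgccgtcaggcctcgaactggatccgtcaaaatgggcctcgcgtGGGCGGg
HNRNPM: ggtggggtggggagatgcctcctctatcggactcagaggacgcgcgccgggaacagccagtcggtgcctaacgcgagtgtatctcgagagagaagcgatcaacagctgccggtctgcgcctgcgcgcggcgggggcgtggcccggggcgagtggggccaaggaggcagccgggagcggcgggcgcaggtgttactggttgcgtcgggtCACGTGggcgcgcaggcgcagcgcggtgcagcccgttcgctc

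The core CCGGAAG stood in 36.7% of the 49 promoter windows (300 bases, 250 before to 50 after the start), against 14.1% of all 15812 windows. It was carried by 7 of 10 snRNP protein genes and 6 of 8 SF3 genes, against 2 of 11 SRSF genes and 3 of 19 HNRNP genes. The E-box CACGTG, the letters recognised by MYC and related factors, showed another split, with 7 of 19 HNRNP genes and RBM15 but 1 of 8 SF3, 0 of 11 SRSF and 0 of 10 snRNP genes. Over all windows its share was 8.82%, and over the 49 it was 18.4%. CCAAT was present in 14 of 19 HNRNP windows, 4 of 10 snRNP, 2 of 11 SRSF and 1 of 8 SF3 windows and in that of RBM15, against 36.4% of all windows. The GC box was at 63.3% against 58.3%, the CGCG element at 4.08% against 0.67%, TATAAA at 10.2% against 9.75%, and the NRF1 motif at 0.0% against 1.77%. The median GC content was 62.67% in both sets, and the median number of CpG dinucleotides was 29 in the 49 windows and 22 in all.

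H3K27ac was listed at the ends of fewer splicing genes after CARM1 inhibition. A peak was present at 40 and 33 of the 53 genes in the DMSO libraries and at 23 and 18 in the inhibitor libraries. Over all genes the same counts were 4842, 2449, 2177 and 1883 of 19974. The inhibitor lists were both longer than the second DMSO list, which covered 7.79 Mb of genome against 10.4 and 9.55 Mb. That DMSO list nevertheless marked more genes than either, among the 53 and among all genes. A gene was called as having lost the mark when both DMSO libraries and neither inhibitor library had a peak at its ends. By this rule 12 of the 32 genes marked in both DMSO libraries lost H3K27ac (37.5%), against a background of 28.0% (651 of 2329 genes). Another 15 of the 32 had a peak in all 4 libraries and 5 in a single inhibitor library, while 48.5% of the 2329 genes had all 4. None of the 12 genes without a DMSO peak gained the mark (background 0.413%), and 11 genes had no H3K27ac peak at their ends in any library. The rule compares 2 libraries with 2 and is not a test. Fewer cells carrying a mark and less of it per cell cannot be told apart in bulk chromatin.

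**Figure D1:**
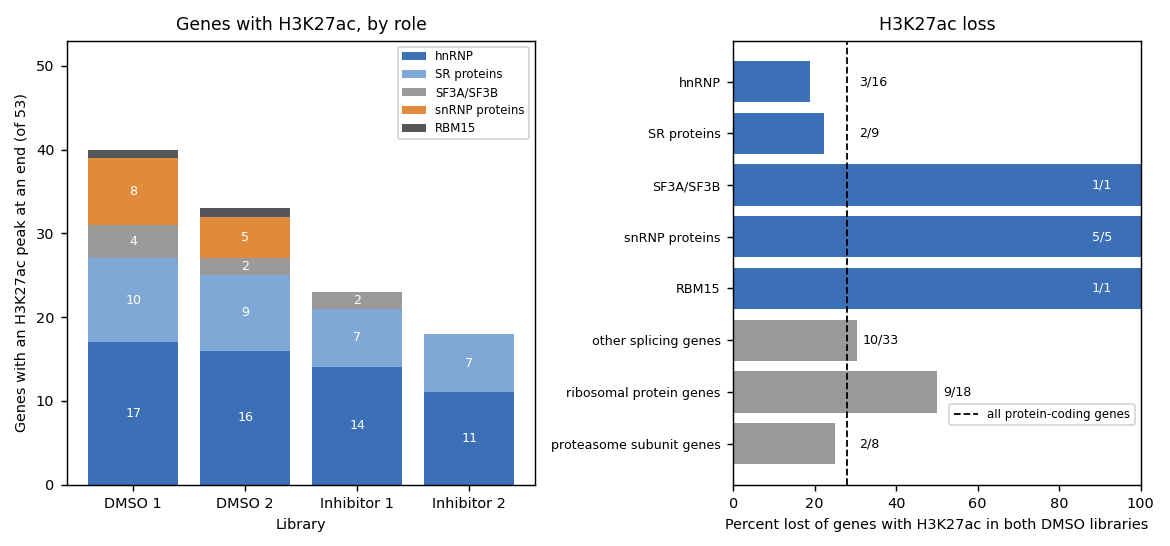
Left, the number of the 53 genes with an H3K27ac peak within 2 kb of a gene end in each library (y axis), stacked by role; snRNP protein genes go from 8 and 5 with DMSO to 0 in both inhibitor libraries. Right, percent of the genes marked in both DMSO libraries that had no peak in either inhibitor library (x axis), with counts beside the bars, the 53 genes by role in blue, other gene sets in grey and all protein-coding genes (28.0%) as the dashed line.

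No snRNP protein gene had a listed H3K27ac peak at its ends after inhibition. Of 11, H3K27ac marked 8 and 5 in the DMSO libraries and 0 and 0 in the inhibitor libraries. All 5 genes marked in both DMSO libraries thus lost it, with a background of 28.0%. These were SNRPA, which encodes the U1-A protein of the U1 snRNP, and 4 genes for proteins of the Sm ring, SNRPB, SNRPD1, SNRPD3 and SNRPE. Without the second DMSO library, the 8 genes marked in the first all counted as lost. That outcome was fixed, since neither inhibitor list had a peak at any of the 11. In that setting 42.5% of the marked splicing genes and 51.3% of all marked genes were called lost.

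SNRPA had 2525 and 2248 bp of H3K27ac in the DMSO libraries, in a peak that also lay at the ends of its neighbour ACTMAP. SNRPB had 1371 and 1004 bp, and SNRPE 1800 and 1372 bp. SNRPD1 had the narrowest of these peaks, 1091 and 971 bp, which lay at the 10.1 percentile of width or below in their lists. SNRPD3 had 3247 and 1238 bp, shared with its neighbour GUCD1. In both inhibitor libraries each of the 5 stood at 0 bp. Of the other 6 genes, SNRPA1, SNRPD2 and SNRPG were marked only in the first DMSO library, and SNRPB2, SNRPC and SNRPF in none.

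In DMSO cells SF3 genes were marked less often than the other roles, but more often than genes in general. Their shares were 44.4% and 22.2% in the DMSO libraries, against 24.2% and 12.3% of all genes. Of 9, 4 and 2 had H3K27ac in DMSO cells, against 2 and 0 in inhibitor-treated cells. SF3A2, a subunit of SF3A, was the only one marked in both DMSO libraries, with 2172 and 1077 bp in a peak shared with PLEKHJ1, and it stood at 0 bp in both inhibitor libraries. SF3B1, whose product contacts the branch point and is mutated in blood cancers, had a peak in 1 library of each treatment. SF3B2 and SF3B3 were marked only in the first DMSO library. When the second DMSO library was left out, 3 of 4 SF3 genes were without the mark after inhibition, again against 51.3% of all genes.

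Among SRSF genes, 10 and 9 of 12 carried H3K27ac with DMSO and 7 in each inhibitor library. Of the 9 marked in both DMSO libraries, SRSF10 and SRSF7 lost it (22.2%, background 28.0%). SRSF10, whose product is a splicing repressor when dephosphorylated, had 2609 and 2608 bp over its 5′ end in the DMSO libraries and 0 bp in both inhibitor libraries. A separate peak outside its other end, 3458 to 3715 bp away in the DMSO libraries, stayed listed in all 4, so that a window of 5 kb no longer calls the gene lost. SRSF7 had 1395 and 1143 bp with DMSO and 0 bp with the inhibitor. Of the other 7 marked in both DMSO libraries, 5 kept a peak in all 4 libraries (SRSF1, SRSF2, SRSF6, SRSF8 and SRSF9), and SRSF3 and SRSF5 kept it in 1 inhibitor library each.

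HNRNP genes were marked in most libraries, 17 and 16 of 20 in DMSO cells, against 14 and 11 in inhibitor-treated cells. Of 16 marked in both DMSO libraries, 10 had a peak in all 4 and 3 in a single inhibitor library. The remaining 3 lost the mark (18.75%, background 28.0%). Without the first inhibitor library the number lost was 6, and 42.8% of all genes were then called lost. The 3 were HNRNPAB, HNRNPF and HNRNPL. HNRNPAB had 1411 and 1360 bp with DMSO, shared with PHYKPL. HNRNPF, which binds runs of guanines, had 3002 and 2493 bp over its 5′ end, and a second pair of peaks of 1391 and 822 bp at an annotated start inside the gene was also absent from both inhibitor lists. Its widths at the 5′ end were wider than 83.3% and 80.7% of the peaks in their lists, so the losses were not limited to narrow peaks.

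HNRNPL, which binds CA repeats, had 2500 and 1696 bp at its 5′ end with DMSO and 0 bp with the inhibitor. The loss did not extend to the inside of the gene: at a second annotated start inside the gene, H3K27ac of 1301 and 1073 bp with DMSO was still 979 and 837 bp wide with the inhibitor (chr19:38849117-38850095 and chr19:38849432-38850268). Counted over the whole gene, HNRNPL kept the mark.

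RBM15 encodes an RNA-binding protein of the complex that writes N6-methyladenosine on RNA. Its H3K27ac peak was 3136 and 2386 bp wide in the DMSO libraries, above 85.0% and 78.5% of the peaks in their lists, and was listed in neither inhibitor library. The peak also lay within 2 kb of an end of the uncharacterised locus LOC124904276.

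The genes with H3K27ac in all 4 libraries were those with wider peaks in DMSO cells. Their median width was 3072 and 2101 bp in the DMSO libraries, against 2336 and 1366 bp for the 12 that lost the mark. The same order held for all genes, with 2607 and 1873 bp for those marked in all 4 libraries and 1671 and 1247 bp for those that lost it. The ranges overlapped, since HNRNPM kept peaks of only 1042 and 901 bp. CCGGAAG stood in the windows of 1 of 14 genes marked in all 4 libraries and 4 of 11 that lost the mark. It stood in 6 of 11 with no H3K27ac peak at their ends. For CACGTG the counts were 5, 1 and 0. Every gene marked in all 4 libraries was an HNRNP or SRSF gene, so state and role cannot be told apart in these counts. Shares over all genes by state were not taken.

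**Figure D2:**
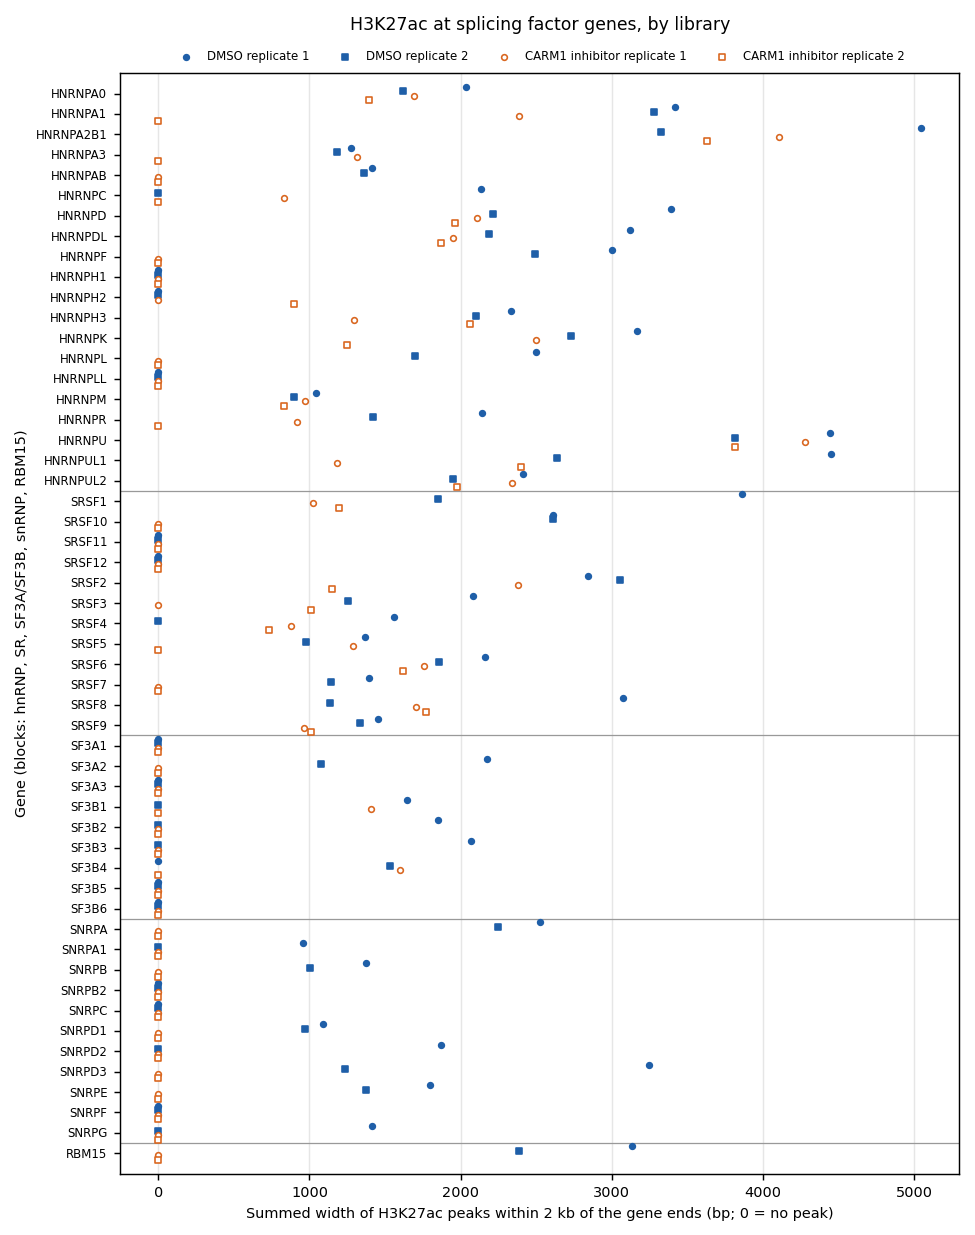
Summed width of H3K27ac peaks within 2 kb of the gene ends (x axis, bp; 0 means no peak) for each of the 53 genes (y axis, in blocks by role), with 1 point per library. No snRNP protein gene has an open orange symbol above 0, whereas 14 and 11 HNRNP genes do.

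Among genes that kept a peak in all libraries, H3K27ac domains were mostly narrower after inhibition (15 of 15, and 10 of 15 after centring, against 843 and 583 of all 1130 genes), but none passed the test. The widest in DMSO cells was at HNRNPA2B1, whose product packages nascent RNA: 5047 and 3328 bp in DMSO cells, against 4109 and 3631 bp in inhibitor-treated cells, in a peak shared with CBX3. HNRNPU, the scaffold attachment factor, had 4446 and 3813 bp against 4279 and 3815 bp. At both genes the treatments overlapped. HNRNPUL1 had 4449 and 2638 bp in DMSO cells, against 1182 and 2397 bp in inhibitor-treated cells, and HNRNPK, a poly(C)-binding protein gene, had 3167 and 2729 bp against 2500 and 1246 bp. SRSF2, the SC35 gene mutated in myeloid neoplasms, had 2845 and 3057 bp against 2379 and 1149 bp, and SRSF9 had 1454 and 1337 bp against 964 and 1008 bp. In these last 4 genes both inhibitor values lay below both DMSO values. The widths of HNRNPUL1 are sums over 1 to 3 separate peaks, 1 of which, at the end near CCDC97, was listed only in the first DMSO library.

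SRSF1, the prototype SR protein, differed most, with 3864 and 1849 bp against 1024 and 1197 bp. The first inhibitor library had no peak at its promoter: its 1024 bp lay at the other end of the gene, where the peak also touches VEZF1. The promoter peak itself was 2323 and 1849 bp with DMSO and 1197 bp in the second inhibitor library.

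The widths of the 15 genes were compared by limma on log2 bp over the 1130 genes with a peak in all 4 libraries, with Benjamini-Hochberg adjustment and a threshold of 0.05. The log2 difference, inhibitor minus DMSO, was −1.27 for SRSF1 (SE 0.397, limma adjusted p = 0.442), −1.03 for HNRNPUL1 (SE 0.439, limma adjusted p = 0.599) and −0.83 for SRSF2 (SE 0.390, limma adjusted p = 0.636). None of the 15 and none of the 1130 genes passed. At an unadjusted limma p under 0.05 the count was 1 of the 15 (SRSF1) and 79 narrower (6.99%) and 13 wider of the 1130. The difference was negative for 15 of the 15, with a median of −0.43 against −0.21 over all 1130. Both inhibitor widths lay below both DMSO widths for 9 of the 15, with a background of 34.4%. After each library was centred on its own median, the medians were −0.23 and −0.01, and 10 of the 15 were negative. Both inhibitor widths then lay below both DMSO widths for 5 of the 15 and above them for 3, against 237 and 236 of the 1130.

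H3K4me3 stayed at the same genes. A peak was listed at the ends of 51 of the 53 genes in each of the 4 libraries, against 49.0% of all genes with a peak in all 4. None of the 51 lost it (background 5.67%) and neither of the other 2 gained it (background 0.0114%). All 12 genes that lost H3K27ac therefore kept H3K4me3, as did 626 of the 651 that lost it among all genes. The peaks covered the annotated 5′ end at 47 of the 47 genes with a promoter entry in 3 of the libraries and at 46 in the second inhibitor library.

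The 2 exceptions differed from each other, and were singled out after their values were seen. HNRNPH1 had no mark within 2 kb of its annotated ends, yet H3K4me3 peaks lay inside the gene, over 2 or 3 of its 4 annotated starts and 7033 to 7602 bp from the nearer end. They were 3729 and 3459 bp wide in the DMSO libraries and 2414 and 2685 bp in the inhibitor libraries. H3K27ac there was 1861 and 949 bp with DMSO, absent in the first inhibitor library and 635 bp in the second. SRSF12 had no peak of any mark in any library within the gene or 2 kb around it.

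The H3K4me3 domains were narrower after inhibition at nearly every splicing gene, as they were at most other genes, but not once each library was centred on its median, when 18 of 51 log2 differences were negative. The median width over the 51 genes was 3096 and 3125 bp in DMSO cells, against 2711 and 2426 bp in inhibitor-treated cells. HNRNP genes had the largest summed widths, with medians of 4462 and 4463 bp in DMSO cells, against 3639 and 3002 bp in inhibitor-treated cells. SRSF genes had medians of 2973 and 3150 bp against 2565 and 2524 bp, SF3 genes 2652 and 2537 bp against 2327 and 2150 bp, and snRNP protein genes 2529 and 2287 bp against 1948 and 1928 bp. Both inhibitor widths lay below both DMSO widths at 48 of 51 genes, with a background of 83.4%. The exceptions were HNRNPLL, SF3B6 and SRSF8.

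**Figure D3:**
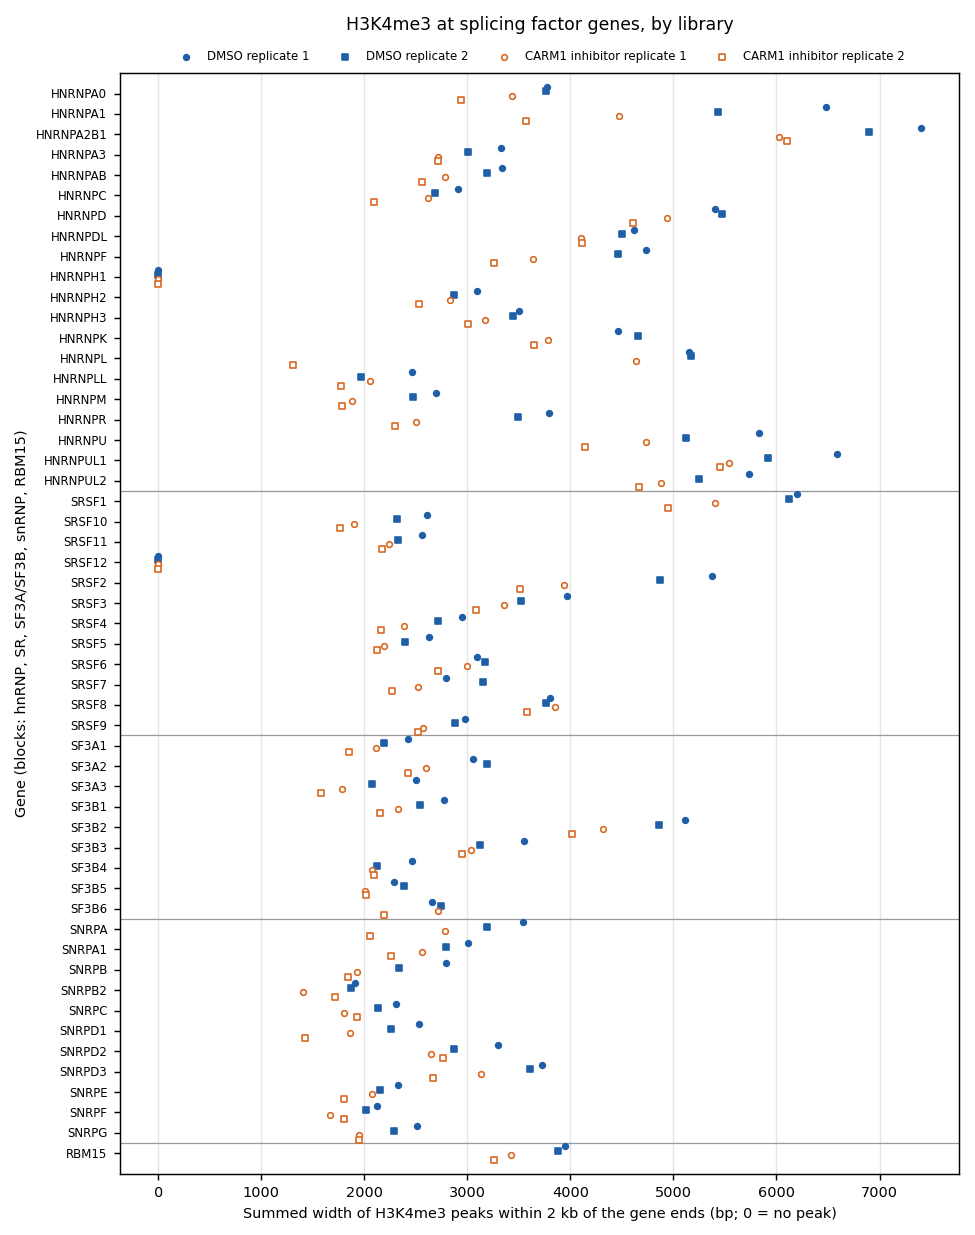
Summed width of H3K4me3 peaks within 2 kb of the gene ends (x axis, bp; 0 means no peak) for each of the 53 genes (y axis, in blocks by role), with 1 point per library. Open orange symbols (inhibitor) lie left of both filled blue symbols (DMSO) at 48 of the 51 genes with peaks. HNRNPH1 and SRSF12 stand at 0. After each library is centred on its median (not drawn), both inhibitor values lie below both DMSO values at 11 genes and above them at 18. Over all 9783 genes these counts are 2192 and 3067.

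The 5 largest summed widths of H3K4me3 in DMSO cells belonged to 4 HNRNP genes and SRSF1, of which SRSF1 and HNRNPUL1 had several peaks and the other 3 a single peak. HNRNPA2B1 had 7405 and 6899 bp in DMSO cells, against 6026 and 6104 bp in inhibitor-treated cells, and HNRNPUL2 5737 and 5246 bp against 4875 and 4666 bp. HNRNPA1, a repressor of exon inclusion, had 6485 and 5429 bp against 4473 and 3566 bp. These 3 peaks also lay at the ends of a neighbouring gene, CBX3, TTC9C and CBX5, respectively. SRSF1 had 6201 and 6119 bp against 5406 and 4944 bp, of which 3493 and 3402 bp against 2827 and 2686 bp were the peak over its 5′ end and the rest a separate peak at the other end, near VEZF1. HNRNPUL1 had 6586 and 5920 bp against 5539 and 5449 bp, in 3 peaks in each DMSO library, 1 of them at the end near CCDC97. At the 5 smallest summed widths, 4 of which encode snRNP proteins, the values were about 2 kb. SNRPB2 had 1914 and 1871 bp against 1409 and 1719 bp, SNRPF 2123 and 2014 bp against 1663 and 1807 bp, and SNRPC, a U1 snRNP protein, 2305 and 2131 bp against 1803 and 1928 bp. SNRPE had 2322 and 2149 bp against 2078 and 1801 bp. HNRNPLL, with 2462 and 1964 bp against 2052 and 1773 bp, was the only one of these 10 genes whose treatments overlapped.

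In the limma fit over 9783 genes with a peak in all 4 libraries, 8 of 51 genes had a narrower domain at an adjusted p under 0.05, with a background of 18.6%, and 0 a wider one (background 0.0307%). The 8 were HNRNPR, HNRNPM, HNRNPA1, HNRNPF, SRSF2, SRSF10, SNRPD1 and SNRPB, and HNRNPF, SRSF10, SNRPD1 and SNRPB had also lost H3K27ac. That is 4 of the 12 splicing genes that lost H3K27ac, against 175 of 626 such genes in the fit over all genes. HNRNPR had the lowest p, with 3797 and 3487 bp in DMSO cells, against 2505 and 2299 bp in inhibitor-treated cells, a log2 difference of −0.60 (SE 0.109, limma adjusted p = 0.0170). HNRNPM went from 2697 and 2472 bp to 1882 and 1784 bp, a log2 difference of −0.49 (SE 0.106, limma adjusted p = 0.0266). The other 6 lay between −0.57 at HNRNPA1 (limma adjusted p = 0.0394) and −0.42 at HNRNPF (limma adjusted p = 0.0416).

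At SRSF2 the widths were 5376 and 4873 bp in DMSO cells, against 3938 and 3506 bp in inhibitor-treated cells, and at SRSF10 they were 2608 and 2317 bp against 1899 and 1763 bp. SNRPD1 had 2529 and 2261 bp against 1861 and 1427 bp, SNRPB 2795 and 2333 bp against 1929 and 1841 bp, and HNRNPF 4730 and 4463 bp against 3639 and 3263 bp. All 8 thus had both inhibitor values below both DMSO values.

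All 51 uncentred log2 differences were negative, and their median of −0.25 stood beside −0.27 over all genes. After each library was centred on its own median width, none of the 51 passed, and the medians were 0.04 for the 51 genes and 0.02 for all. The number called also rested on single libraries: it was 0 without the first DMSO library, 20 without the first inhibitor library and 1 without the second, where 6.07%, 41.8% and 8.35% of all genes were called.

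The H3K4me3 widths of the 12 genes that lost H3K27ac at their ends were 3193.5 and 3187.5 bp in the DMSO libraries at the median, with 4613 and 4654 bp for the 15 that kept H3K27ac. The 9 with H3K4me3 but no H3K27ac peak at their ends in any library had 2421 and 2131 bp. Among them, SRSF11 had H3K27ac near an annotated start inside the gene, 1141 bp in the first DMSO and 972 bp in the first inhibitor library. RBM15 went from 3952 and 3877 bp to 3423 and 3257 bp, a log2 difference of −0.23 (SE 0.101, limma adjusted p = 0.112) that was 0.06 after centring. HNRNPL had the largest difference, −1.07, with 5154 and 5175 bp against 4640 and 1305 bp, but did not pass (SE 0.489, limma adjusted p = 0.119). In the second inhibitor library its domain was split, and only the part over the outer 5′ end lay in the window: with all annotated starts counted the value there was 3073 bp.

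On the uncentred scale, both edges of the H3K4me3 domain lay nearer the start of the gene after inhibition. At 46 genes a single peak covered the annotated 5′ end in all 4 libraries. Into the gene it reached 1833.5 and 1697.5 bp in DMSO cells, against 1462 and 1302 bp in inhibitor-treated cells at the median, and it was shorter in both inhibitor libraries at 37 of 46 genes, with a background of 69.6%. Upstream it reached 1147 and 1102.5 bp against 963.5 and 899 bp, and it was shorter at 34 of 46, with a background of 70.4%. The median change was −260.5 bp into the gene and −196.25 bp upstream, against −187.5 and −180.5 bp over 7697 genes. For the 17 HNRNP genes among them it was −340 bp into the gene and −235.5 bp upstream. The change in bp was larger on the gene side at 28 of 46 genes (60.9%), against 51.5% of all genes. In DMSO cells the peak already reached farther into the gene than upstream at 36 of 46 genes (78.3%), against 74.7% of all genes. Changes relative to the starting reach were not compared.

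**Figure D4:**
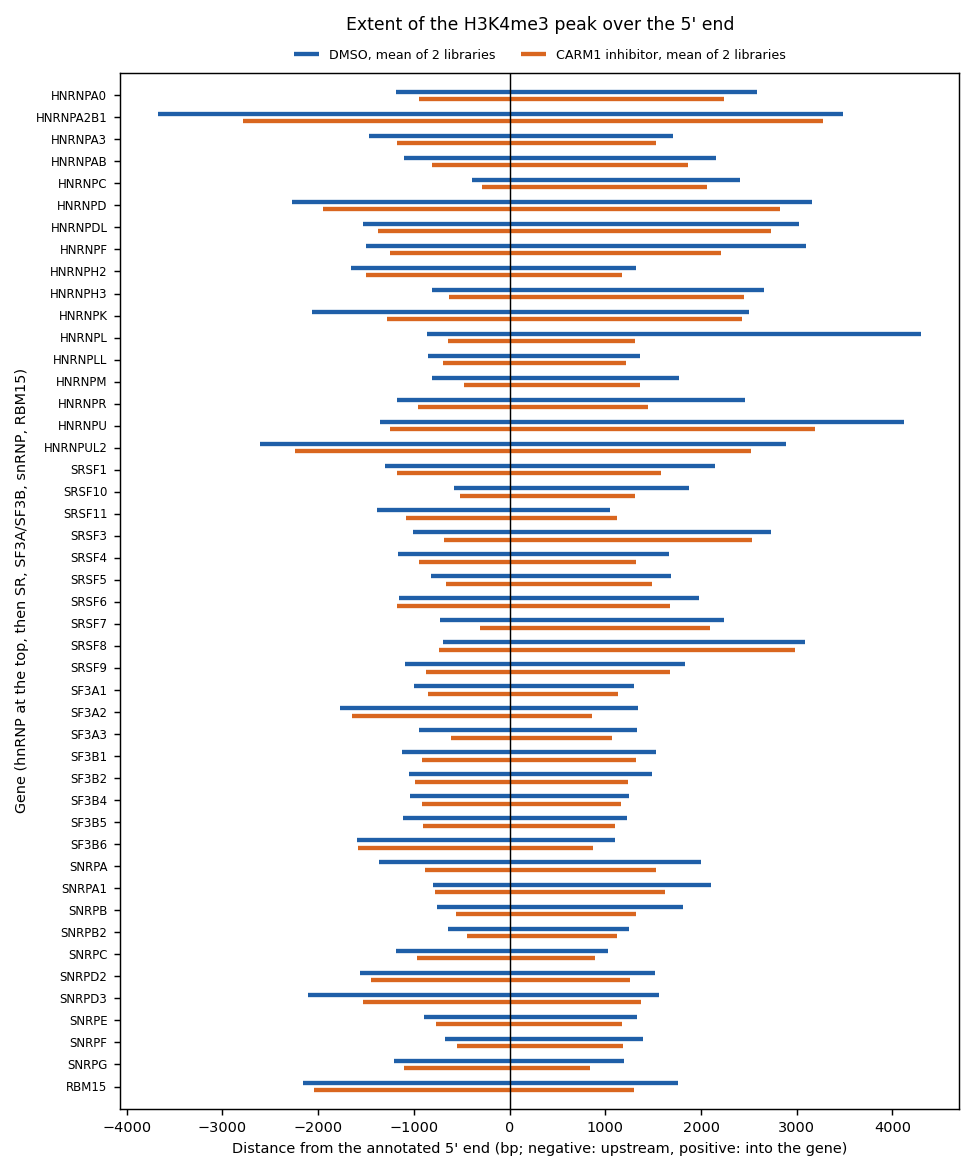
Reach of the H3K4me3 peak upstream (negative) and into the gene (positive) from the annotated 5′ end (x axis, bp), drawn for 46 genes (y axis) as the mean of 2 DMSO libraries (blue) and 2 inhibitor libraries (orange). Orange lines are mostly shorter on both sides, and the HNRNP genes at the top reach farthest into the gene.

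H3K4me1 was listed at far fewer splicing genes after inhibition, in lists that were themselves much shorter. It lay at 26 and 7 of the 53 genes in the DMSO libraries and at 1 in each inhibitor library. Of the 7 marked in both DMSO libraries, 5 lost it (HNRNPL, HNRNPM, SRSF8, SF3A2 and SNRPD3), with a background of 55.4%, and 0 of 27 gained it (background 0.0243%). Without the second DMSO library, 24 of 26 were lost, against 80.7% of all genes in that setting. SF3B2 kept a peak in the second inhibitor library, with 6332 and 3202 bp with DMSO and 1568 bp, and SRSF2 in the first, with 5667 and 1606 bp against 1397 bp. In the first DMSO library an H3K4me1 peak covered the annotated 5′ end at 1 of 23 marked genes with a promoter entry. Some of the peaks lay at the other end of the gene: the only peak of HNRNPM in the second DMSO library began 41534 bp from its 5′ end, so its loss rests on that end, and the peak that SF3B2 kept began 16243 bp from its own.

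SF3A2, SNRPD3 and HNRNPL lost H3K27ac and H3K4me1 together. SF3A2 had 3157 and 1247 bp of H3K4me1 with DMSO, SNRPD3 3854 and 976 bp, and HNRNPL 2341 and 1158 bp, all 0 bp with the inhibitor. RBM15 had 2466 bp in the first DMSO library and none in the other 3.

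The genes of the CARM1 substrates named above differed in H3K27ac. At each of them both inhibitor widths of H3K4me3 lay below both DMSO widths, with a background of 83.4%. SNRPB lost H3K27ac and its H3K4me3 domain narrowed (log2 −0.44, SE 0.121, limma adjusted p = 0.0464), but did not pass after centring (limma adjusted p = 0.391). SNRPC had no H3K27ac in any library, and its H3K4me3 log2 difference was −0.25 (limma adjusted p = 0.105). SF3B4, a subunit of SF3B, had H3K27ac of 1532 bp in the second DMSO library and 1600 bp in the first inhibitor library and none in the other 2, and its H3K4me3 was 2463 and 2123 bp against 2078 and 2094 bp.

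The counts for other gene sets stand here for reference. Of 99 further splicing genes, 33 had H3K27ac in both DMSO libraries and 10 of these lost it (30.3%), while 0 gained it. H3K4me3 was lost at 1 of 90, and its domain was narrower at 20 of 89 and wider at 0 in the limma fit. Ribosomal protein genes lost H3K27ac at 9 of 18 and proteasome subunit genes at 2 of 8, and none of 74 and 33, respectively, lost H3K4me3. In the limma fit of H3K4me3 width, 11 of 74 ribosomal protein genes and 3 of 33 proteasome genes were narrower. H3K4me1 was lost at 6 of 14 further splicing genes, 10 of 13 ribosomal protein genes and 5 of 5 proteasome genes. No difference between these gene sets was tested.

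Several of the peaks belong to more than 1 gene. A DMSO peak at 20 of the 41 genes with H3K27ac also lay within 2 kb of the end of another protein-coding gene, as did H3K4me3 at 25 of 51 and H3K4me1 at 15 of 26. With such peaks set aside, 7 of 18 genes lost H3K27ac (38.9%, against 28.5% of all genes), with SNRPB, SNRPD1 and SNRPE, HNRNPF and HNRNPL, and SRSF7 and SRSF10 still among them.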

How the data were processed

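Chromatin from Toledo cells was immunoprecipitated for H3K27ac, H3K4me1 and H3K4me3. The submitters' processing notes name Bowtie 1.1.2 and MACS 1.4.2, and hg38 as the build. For the threshold of the caller and the use of inputs, nothing is given in the labels. The authors deposited 1 list per library with chromosome, start and end in bp, and no score. Replicates are the 2 libraries per group, which may be technical.

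Gene ends came from RefSeq (GRCh38.p14, gene symbols). A peak counted when it shared at least 1 bp with the 2 kb window at either end. Its whole width entered the covered length, which can reach beyond the window. limma 3.58.1 (R 4.3.3, empirical Bayes, 2 against 2 libraries, no covariate) was fitted on log2 covered length over all genes with a peak in all 4 libraries. H3K4me1 widths were not tested. The calling of states and the limma fit were tested on simulated data. The changes simulated for limma were larger than the H3K4me3 differences called here, and no shift common to all genes was simulated. Calls of the reported size were therefore not covered by it.

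The genes, roles, motifs and comparison lists were chosen with earlier results of these data known. Values per library are given for genes that lost H3K27ac, the 5 largest and 5 smallest H3K4me3 covered lengths, the 5 largest H3K27ac covered lengths in all 4 libraries, the 5 lowest limma p-values per mark, RBM15, SNRPB, SNRPC and SF3B4. Other genes named singly were chosen after their values were seen. Sequences are from RefSeq promoter entries; exons and transcripts were not used here.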

Additional observations from a re-analysis of the deposited data

How the results depend on the processing

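The 12 H3K27ac losses were 10 to 12 with windows of 1, 5 or 10 kb, the whole gene, 5′ ends only, lists cut to equal length by width, peaks of at least 1000 bp or at least 200 bp in the window, and 7 with peaks at 1 gene only; leaving out each library gave 12 to 17. In each of these settings no snRNP protein gene marked in the DMSO libraries used had a peak in the inhibitor libraries used. This could have come out otherwise only with windows of 5 or 10 kb, the whole gene or 5′ ends only. The other settings can only remove peaks or libraries, so the outcome was fixed there. The 17 without DMSO replicate 2 were 42.5% of 40 genes, below the 51.3% of all genes, whereas with every library in place it was 37.5% against 28.0%. H3K27ac gains were 0, and 0 to 1 with a library left out (SRSF4 without DMSO replicate 1, HNRNPH2 without inhibitor replicate 1). H3K4me1 losses, 5 as reported, were 2 at 1 kb, 9 at 5 kb, 3 at 5′ ends only and 3 with peaks at 1 gene only. They were 3 with peaks of at least 1000 bp, and 5 to 24 with a library left out. With lists of equal length no splicing gene was marked in both DMSO lists, so none could be lost. The number marked in both DMSO libraries moved with the setting as well. Among HNRNP genes it was 2 as reported, 1 at 1 kb and 4 at 5 kb.

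H3K27ac domains called narrower were 0 as reported. They were 12 of 36 when genes with a peak in at least 2 libraries entered as log2(bp + 100). Over all genes the share in that fit was 21.1%. An absent peak entered there as 0 bp, so a gene that lost its peak counted as strongly narrower. That count therefore mixes absence with narrowing and does not describe kept domains. The 5 genes with peaks in all 4 libraries and the lowest limma p stayed uncalled in it. H3K4me3 domains called narrower, 8 as reported, were 0 after centring (2.28% of all genes), 2 for bp inside the windows (11.1%), 5 at 5 kb (16.9%), 1 on log2(bp + 100) (11.3%), and 0 to 20 with a library left out. With the replicate number as a block they were 19 of 51 (43.9% of all genes), but same-numbered libraries correlated at only 0.097 and 0.056 (H3K27ac and H3K4me3 deviations, across genes, 2 pairs), so the numbers were not taken to pair them; this block changed no H3K27ac count. The causes of these moves were not tested. After centring, 18 of 51 H3K4me3 and 10 of 15 H3K27ac differences were still negative and the rest were not, and the H3K4me3 median went from −0.25 to 0.04. The 8 called H3K4me3 differences stayed negative in every alternative run, but these runs reuse the libraries from which the 8 were picked. All 51 uncentred differences were negative as well, so the sign is no separate support for the 8. HNRNPR kept its call in 10 of 12 alternatives, more than the other called genes, and lost it after centring and without DMSO replicate 1. Stricter peak scores could not be tried, since the lists hold none. Read depth is unknown and limits every absence.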
